A study of Mus musculus with 2 samples.

Results

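The genes described here are 9 small nucleolar RNA (snoRNA) host genes, Gas5, Snhg1, Snhg3, Snhg4, Snhg5, Snhg6, Snhg7, Snhg8 and Snhg12. They were matched by gene symbol to the Ensembl gene identifiers of the deposited tables. Of the 9, 5 were matched in both libraries (Gas5, Snhg3, Snhg5, Snhg6 and Snhg12), out of 43346 mouse genes listed, and these 5 genes had 50 transcript models. Snhg1, Snhg4, Snhg7 and Snhg8 had no matching gene identifier, and their gene-level values were not analysed here.

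The libraries were made from polyadenylated RNA of G1E-ER4 cells, an immortalized mouse erythroid line that lacks its own Gata1 and in which GATA1 is restored as an estradiol-responsive fusion protein. Both libraries came from cells given 10 nM 17beta-estradiol for 3 h, so the study has 1 group of 2 samples, numbered as biological replicates 1 and 2, and no untreated sample. Both carry the same biosample record, nothing in the labels says that they came from separate cultures, and the cells are 1 immortalized line. Differences between libraries therefore cannot be read as effects of estradiol, and the tests below measure counting noise only.

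A host gene carries snoRNAs in its introns. After splicing, the excised intron is trimmed to the snoRNA, which is bound by the core proteins of its class and guides the chemical modification, or in a few cases the cleavage, of ribosomal RNA. Box C/D snoRNAs guide 2'-O-methylation, and box H/ACA snoRNAs guide pseudouridylation. The spliced exons of these genes have little coding capacity. Many of them start with a pyrimidine run, as mRNAs of the translation machinery do, and several, Gas5 among them, are degraded by nonsense-mediated decay. Gas5 was named for its accumulation in growth-arrested cells. The snoRNAs themselves are short and lack a poly(A) tail, so a polyA library chiefly reports the host transcript.

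The starts of the genes are shown first, because a C/T run at the start is the feature for which this class is known. Each line gives 30 bases around a RefSeq start (GRCm38.p6), with capitals for the longest C/T run that overlaps the stretch from 5 bases before to 5 bases after the start. The run need not cover the start itself: in Snhg1, Snhg3 and Snhg5 it lies just downstream.
Gas5, outer start, chr1:161034591-161034620, plus strand: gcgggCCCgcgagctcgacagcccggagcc
Gas5, inner start, chr1:161035156-161035185, plus strand: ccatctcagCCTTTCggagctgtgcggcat
Snhg1, chr19:8723477-8723506, plus strand: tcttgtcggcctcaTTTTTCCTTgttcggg
Snhg3, chr4:132353667-132353696, minus strand: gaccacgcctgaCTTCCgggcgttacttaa
Snhg5, chr9:88522878-88522907, minus strand: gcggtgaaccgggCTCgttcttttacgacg
Snhg7, chr2:26640225-26640254, minus strand: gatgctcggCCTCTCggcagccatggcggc
Snhg8, chr3:123508317-123508346, minus strand: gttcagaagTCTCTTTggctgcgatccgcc
Snhg12, chr4:132308668-132308697, plus strand: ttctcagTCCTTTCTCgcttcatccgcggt
Of the 8 starts shown, from 7 genes, 6 had a run of at least 5 bases by this rule, against 32.9% of 32851 RefSeq promoters scanned the same way. Such a run of at least 7 bases was found at 3 of the 8 starts (those of Snhg1, Snhg8 and Snhg12), against 14.1% of promoters. Both outer and inner Gas5 starts are annotated, and only the inner one, with CCTTTC, had a run longer than 3. Snhg4 and Snhg6 are not shown in this set.

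The embedded snoRNAs are shown next, 1 or 2 for each matched gene, because they are what each host delivers. Sequences are those of GENCODE M21 on GRCm38. For the C/D class the capitals mark the C box TGATGA and the D box CTGA, and for the H/ACA class they mark the ACA near the 3' end.
Snord47, in Gas5, chr1:161038082-161038158, plus strand: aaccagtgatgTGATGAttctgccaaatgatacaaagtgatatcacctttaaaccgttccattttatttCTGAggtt
Snord80, in Gas5, chr1:161037601-161037681, plus strand: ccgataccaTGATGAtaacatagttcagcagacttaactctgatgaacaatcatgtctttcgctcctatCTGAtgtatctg
Snord87, in Snhg6, chr1:9942463-9942549, minus strand: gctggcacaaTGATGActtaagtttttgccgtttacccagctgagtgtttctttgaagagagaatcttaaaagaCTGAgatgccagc
Snord50a, in Snhg5, chr9:88521529-88521600, minus strand: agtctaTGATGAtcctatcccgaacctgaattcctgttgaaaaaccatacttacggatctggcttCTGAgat
Snord50b, in Snhg5, chr9:88521797-88521868, minus strand: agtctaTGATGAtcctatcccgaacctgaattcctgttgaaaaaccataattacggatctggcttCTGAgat
Snord99, in Snhg12, chr4:132310691-132310764, plus strand: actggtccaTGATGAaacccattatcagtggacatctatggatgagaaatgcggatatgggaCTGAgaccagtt
Snora61, in Snhg12, chr4:132310240-132310369, plus strand: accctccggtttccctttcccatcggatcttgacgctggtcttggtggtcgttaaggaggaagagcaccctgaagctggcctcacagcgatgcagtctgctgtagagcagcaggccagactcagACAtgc
Snora73a, in Snhg3, chr4:132352775-132352979, minus strand: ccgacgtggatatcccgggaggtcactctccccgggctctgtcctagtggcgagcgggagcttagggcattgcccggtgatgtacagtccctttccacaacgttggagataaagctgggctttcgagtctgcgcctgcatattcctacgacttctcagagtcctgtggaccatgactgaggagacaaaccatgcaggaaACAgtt
Snora73b, in Snhg3, chr4:132352322-132352526, minus strand: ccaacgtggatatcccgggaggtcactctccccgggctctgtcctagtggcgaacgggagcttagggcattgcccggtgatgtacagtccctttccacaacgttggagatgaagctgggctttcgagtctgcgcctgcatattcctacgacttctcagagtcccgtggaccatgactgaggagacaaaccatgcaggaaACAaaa
The pair in Snhg5 differed by 1 substitution over 72 bases, C50A, counted from the 5' end of Snord50a with its base first. The pair in Snhg3 differed at 7 of 205 positions, an identity of 96.6%. Searched on the given strand, a C box within the first 20 bases and a D box within the last 15 were found in 16 of 20 embedded snoRNA entries of 60 to 100 bases listed in the tables, against 63.9% of the 454 annotated snoRNAs of that length. An ACA within the last 8 bases was found in 8 of 10 listed entries of 120 to 210 bases, against 62.7% of 895. Those 10 leave out Snhg4, and they hold 2 overlapping entries of Snora43. They were taken by length alone, so they include Snord22, a C/D snoRNA by name, which lacked such an ACA.

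The annotation places 34 snoRNA entries at 31 loci inside the 9 host genes on the same strand. Gas5 holds 9 of these loci, Snhg1 8, Snhg12 4, and Snhg3, Snhg4, Snhg5 and Snhg7 2 each, while Snhg6 and Snhg8 hold 1 each. The deposited tables listed 32 of the 34 entries, 30 with the same length as in M21.

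Depth was 31126957 expected counts (estimated numbers of fragments) in replicate 1 and 57853617 in replicate 2. Levels are given in TPM, which is scaled to transcript length, and the interval after a TPM is the one deposited with it, whose level is not stated. Differences are ratios of counts scaled by TMM library sizes, with a prior count of 2, replicate 1 against replicate 2. All 11 erythroid markers were at 1 TPM or more in both libraries, with summed levels of 6444 and 21986 TPM. The markers did not share 1 direction. In the test described below, 4 were higher in replicate 1 and 7 in replicate 2, beside 37.2% and 43.1% of all genes tested. Klf1 was 1.77-fold higher in replicate 1, while Hbb-bs (863 and 9484 TPM) and Hba-a1 (149 and 6606 TPM) were higher in replicate 2. Hba-a2, the other Hba gene listed, had 1565 and 2675 TPM and was 2.11-fold higher in replicate 2. In replicate 1 the counts of Hba-a1 and Hba-a2 were fractional (1494.64 and 16204.4). The level of each therefore depends on how shared fragments were assigned. None of 12 markers of other cell types reached 1 TPM in both, with summed levels of 2.12 and 0.88 TPM, and Lyz2, Cd3e, Cd8a, Pecam1, Cdh5 and Alb were at 0. The libraries differed widely across genes: the median absolute log2 ratio was 0.59, and 95 of 10635 tested genes (0.893%) were more than 16-fold higher in replicate 2.

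All 5 matched host genes were detected at 1 TPM or more in both libraries, at low to moderate levels. Snhg12 and Snhg6 were higher in replicate 2, by 10.2-fold and 5.46-fold in scaled counts, and Gas5 was higher in replicate 1, by 1.29-fold. In the exact binomial test with Benjamini-Hochberg adjustment over all genes, 3 of the 5 differed between the libraries. Of all 10635 genes tested, 80.4% did so, with 37.2% toward replicate 1 and 43.1% toward replicate 2. The 5 genes were thus called no more often than genes at large. Both Snhg12 and Snhg6, 2 of the 5, were called and at least 2-fold apart, against 26.4% of all genes tested.

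**Figure D1:**
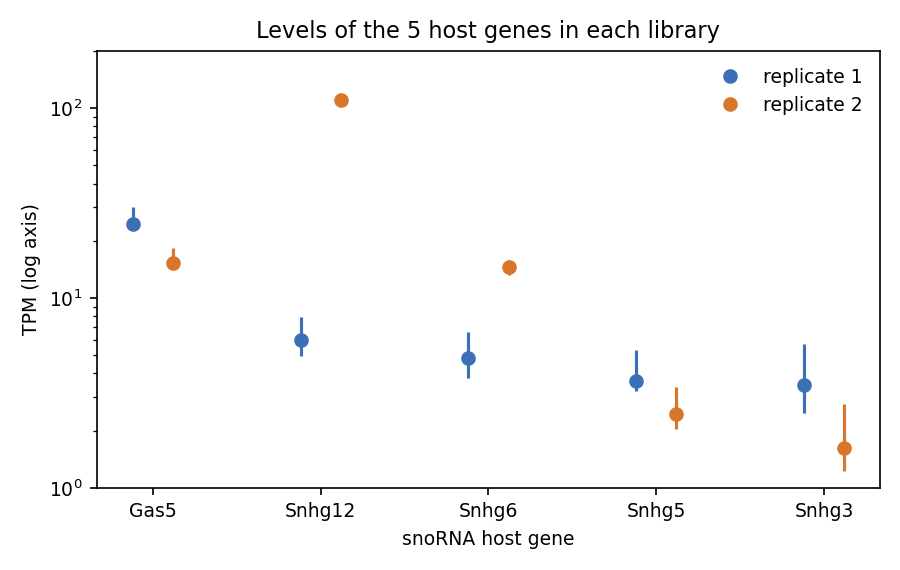
TPM of the 5 host genes in each library on a log axis; points are the deposited TPM, and vertical lines are the deposited intervals. Snhg12 at 5.98 and 109.7 TPM and Snhg6 at 4.84 and 14.56 TPM lie far apart between the libraries, while the intervals of Snhg5 and of Snhg3 overlap.

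Gas5 (chr1:161034422-161038539, plus strand) carries more snoRNA loci than any of the other 8 genes. It had 301 and 384 expected counts, and 24.4 TPM (interval 23.2 to 30.1) in replicate 1 and 15.4 TPM (14.6 to 18.3) in replicate 2. The mean was 19.9 ± 6.42 TPM (SD, n = 2). Replicate 1 was the higher library, and the intervals did not overlap. The scaled counts were 1.29-fold higher in replicate 1 (95% exact interval of the ratio without the prior, 1.11 to 1.51, adjusted p = 0.00147 in the exact binomial test). Zbtb37, a zinc finger gene that overlaps Gas5 by 428 bases on the other strand, had 33 and 69 counts and 0.07 TPM in each library.

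Snhg12 (chr4:132308623-132311024, plus strand) holds Snora16a, Snora44, Snora61 and Snord99. It had 72 counts in replicate 1 and 1239 in replicate 2. Its level was 5.98 TPM (4.95 to 7.94) in replicate 1 and 110 TPM (102 to 114) in replicate 2, a mean of 57.8 ± 73.3 TPM (SD, n = 2). Replicate 2 stood far above replicate 1, and the SD exceeded the mean. The ratio was 10.2-fold in scaled counts (95% exact interval without the prior, 8.22 to 13.4, adjusted p = 3.93e-165 in the exact binomial test) and 18.3-fold in TPM. The gene length by which TPM is scaled was 622 bases in replicate 1 and 368 in replicate 2, since it follows the transcript mix. Of all genes tested, 165 had a larger ratio toward replicate 2. Its neighbour Trnau1ap, a selenocysteine tRNA-associated gene 738 bases away on the other strand, had 1753 and 2761 counts, or 159 and 83.0 TPM. In scaled counts Trnau1ap was 1.05-fold higher in replicate 1 and was not called (adjusted p = 0.158 in the exact binomial test).

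Snhg6 (chr1:9941959-9944118, minus strand) holds Snord87. It had 53 counts in replicate 1 and 488 in replicate 2, and 4.84 TPM (3.81 to 6.64) and 14.6 TPM (13.2 to 15.9). The mean was 9.70 ± 6.87 TPM (SD, n = 2). Replicate 2 was again the higher library, and the intervals did not overlap. The ratio was 5.46-fold in scaled counts (95% exact interval without the prior, 4.20 to 7.56, adjusted p = 1.39e-48 in the exact binomial test) and 3.01-fold in TPM. In 456 tested genes the ratio toward replicate 2 was larger. Mcmdc2, which overlaps the 3' end of Snhg6 by 127 bases on the other strand, had 1 and 0 counts.

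Snhg5 (chr9:88521050-88522929, minus strand) holds the near-identical pair Snord50a and Snord50b. It had 69 and 83 counts, and 3.65 TPM (3.24 to 5.29) and 2.46 TPM (2.03 to 3.39), a mean of 3.06 ± 0.841 TPM (SD, n = 2). The intervals of the 2 libraries overlapped. The scaled count was 1.36-fold that of replicate 2 in replicate 1, with a 95% exact interval without the prior of 0.982 to 1.91 (adjusted p = 0.0787 in the exact binomial test). With libraries scaled by total counts in place of TMM, the adjusted p was 0.0133 and Snhg5 passed the threshold.

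Snhg3 (chr4:132348014-132353686, minus strand) holds Snora73a and Snora73b, the snoRNAs also known as U17, which act in cleavage of the ribosomal RNA precursor. It was the least abundant of the 5 genes, with 22 counts in each library, 3.46 TPM (2.47 to 5.73) and 1.62 TPM (1.23 to 2.77), and a mean of 2.54 ± 1.30 TPM (SD, n = 2). The intervals overlapped, and the 95% exact interval of the ratio of replicate 1 to replicate 2, without the prior, ran from 0.871 to 3.12 (adjusted p = 0.154 in the exact binomial test). Rcc1, which encodes the nucleotide exchange factor of the GTPase Ran, overlaps Snhg3 on the same strand over 5592 bases. Rcc1 had 5299 and 11189 counts, 102 and 104 TPM, so fragments of the shared stretch that fit both genes could be assigned to either.

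The order of the genes by TPM differed between the libraries. In replicate 1 it was Gas5, Snhg12, Snhg6, Snhg5 and Snhg3, and only Gas5 and Snhg12 among neighbours had intervals that did not overlap. In replicate 2 Snhg12 came first and Gas5 next, and the other three kept their order. There the intervals of Gas5 and Snhg6, and those of Snhg5 and Snhg3, overlapped. Set among all mouse genes with a TPM above 0, mean levels exceeded those of 84.7% of genes for Snhg12, 71.1% for Gas5, 61.6% for Snhg6, 49.3% for Snhg5 and 47.8% for Snhg3. Set among noncoding genes alone, the shares ran from 87.4% for Snhg3 to 98.4% for Snhg12.

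The higher level of Snhg12 and of Snhg6 in replicate 2 lay in 1 transcript model each. For Snhg12 this was Snhg12-204, with 0 counts in replicate 1 and 1208 in replicate 2. It made up 0% and 99.2% of the gene's TPM. Apart from it, Snhg12 had 72 counts in replicate 1 and 30.6 in replicate 2, or 5.98 and 0.90 TPM. These remainders depend on how fragments that fit several models were assigned. Setting Snhg12-204 apart was done after the values were seen and has no test. In replicate 1 the leading Snhg12 model was Snhg12-206, with 44.7% of TPM (2.67 TPM, interval 0.757 to 3.59), followed by Snhg12-207 with 18.8% (interval 0.467 to 2.06 TPM), Snhg12-202 with 18.1% and Snhg12-201 with 13.2%. The intervals of Snhg12-206 and Snhg12-207 overlapped. In replicate 2 Snhg12-206 and Snhg12-207 were at 0, with intervals up to 1.04 and 0.214 TPM. For Snhg12-206 this interval overlapped that of replicate 1, and for Snhg12-207 it did not. The Snhg12-204 model had 364 bases in the tables and has 1416 bases in M21, so which exons the counted model held is not known here.

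For Snhg6 the model was Snhg6-205, with 24.0 counts and 1.42 TPM (interval 0.847 to 2.05) in replicate 1, and 477 counts and 13.7 TPM (12.3 to 14.8) in replicate 2. Its share of the gene's TPM was 29.4% and 94.2%. Snhg6-203, the leading model of replicate 1 with 66.0% and 3.20 TPM (interval 1.79 to 4.41), was at 0 in replicate 2 (interval up to 0.492 TPM). In replicate 1 its interval overlapped that of Snhg6-205. Snhg6-204 was at 0 in replicate 1 and held 5.84% in replicate 2. Apart from Snhg6-205 the gene had 29.0 counts in replicate 1 and 11.1 in replicate 2, again a description made after the values were seen.

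**Figure D2:**
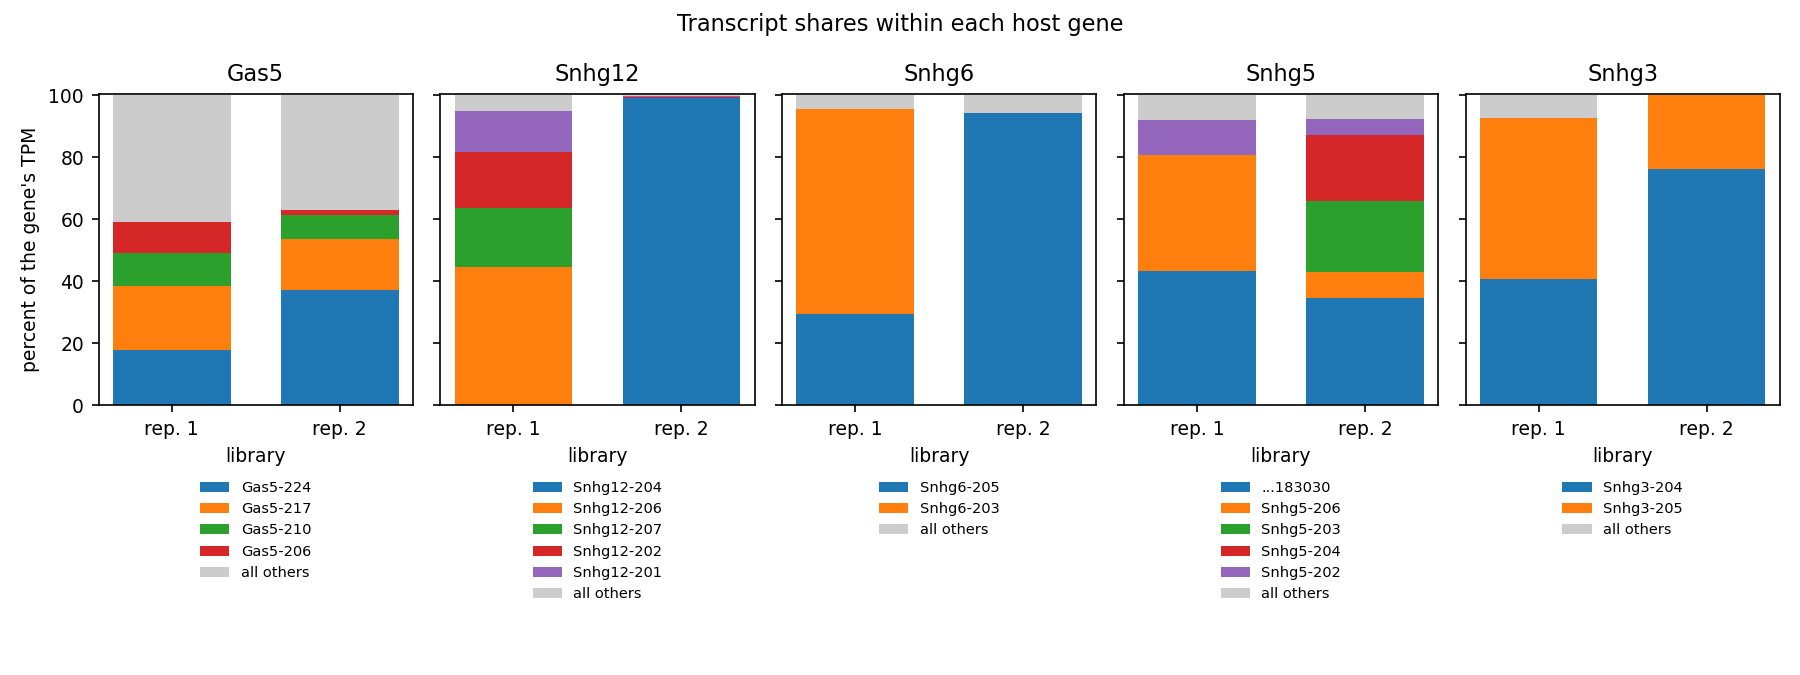
Percent of each gene's TPM in each transcript model, for replicate 1 and replicate 2; models with at least 10% in either library are coloured by panel, and the rest are grey. Snhg12-204 goes from 0% to 99.2% and Snhg6-205 from 29.4% to 94.2% between replicates 1 and 2, while Gas5 is spread over many models in both.

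These Snhg6 models differ in their annotated 5' end, and so do the Gas5 models. The first 40 bases of the leading models are therefore shown, from GENCODE M21. Capitals mark a C/T run that begins at the first base.
Snhg6-203, from chr1:9944118, minus strand: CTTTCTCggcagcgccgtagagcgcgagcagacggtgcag
Snhg6-205, from chr1:9943223, minus strand: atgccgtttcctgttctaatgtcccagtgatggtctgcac
Gas5-217, from chr1:161034607, plus strand: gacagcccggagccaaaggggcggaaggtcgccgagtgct
Gas5-224, from chr1:161035163, plus strand: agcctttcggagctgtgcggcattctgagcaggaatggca
Snhg6-203 began with the run CTTTCTC, whereas Snhg6-205 began 895 bases further into the gene, with a first exon of 614 bases that has no such run at its start. The 3 Snhg6 models with outer starts had a total of 3.42 TPM in replicate 1, against 0.85 in replicate 2. For the 2 models with inner starts the totals were 1.42 and 13.7 TPM. By these assignments the models with outer starts were lower and those with inner starts higher in replicate 2. The first exon of Snhg6-205 runs from 895 to 1508 bases from the outermost start. It contains the Snhg6-203 exon at 1401 to 1508, so the 2 models share bases there. Which start was used was not measured.

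Gas5 was spread over more models than the other genes, with 15 of its 25 models above 0 in each library. Gas5-217 led in replicate 1 with 20.7% of TPM (5.05 TPM, interval 3.42 to 6.66), ahead of Gas5-224 with 17.7% (4.32 TPM, 2.27 to 5.99), and these intervals overlapped. Gas5-224 led in replicate 2 with 37.2% (5.71 TPM, 4.07 to 6.80), ahead of Gas5-217 with 16.6% (2.54 TPM, 1.74 to 3.41). There the intervals did not overlap. Gas5-210 held 10.6% and 7.59%, and Gas5-206 held 10.0% and 1.77%. Gas5-224 starts beside the inner RefSeq start with CCTTTC shown above. The 14 models that start within 30 bases of it had totals of 9.61 and 9.80 TPM, nearly level between replicates 1 and 2. They made up 39.4% and 63.9% of the gene's TPM. The 2 models with upstream starts had 5.05 and 2.54 TPM, and the 7 models that start inside the gene had 5.92 and 0.79 TPM. The lower Gas5 TPM of replicate 2 thus lay outside the models at the inner RefSeq start.

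Snhg3 and Snhg5 had too few counts for firm shares. So did Snhg6 and Snhg12 in replicate 1, with 53 and 72 counts in all. Snhg3-205 had 51.9% and 24.0% of the gene's TPM and Snhg3-204 had 40.8% and 76.0%, on 8.70 and 3.65 counts for the first and 10.5 and 18.4 for the second. Their intervals overlapped in both libraries. In Snhg5 the model ENSMUST00000183030, which has no counterpart in M21, led with 43.4% and 34.8%. Its interval reached from near 0 to 1.69 TPM in replicate 1 and to 0.967 TPM in replicate 2. Snhg5-206 held 37.4% and 8.36%, and Snhg5-203 held 0% and 22.8%. By these shares, Snhg5 was the one of the 5 genes whose leading model was the same in both libraries. By posterior means that model held 17.95% and 17.14% and led in neither. Snhg5-206 then led in replicate 1 with 29.32%, and Snhg5-203 in replicate 2 with 20.86%.

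**Figure D3:**
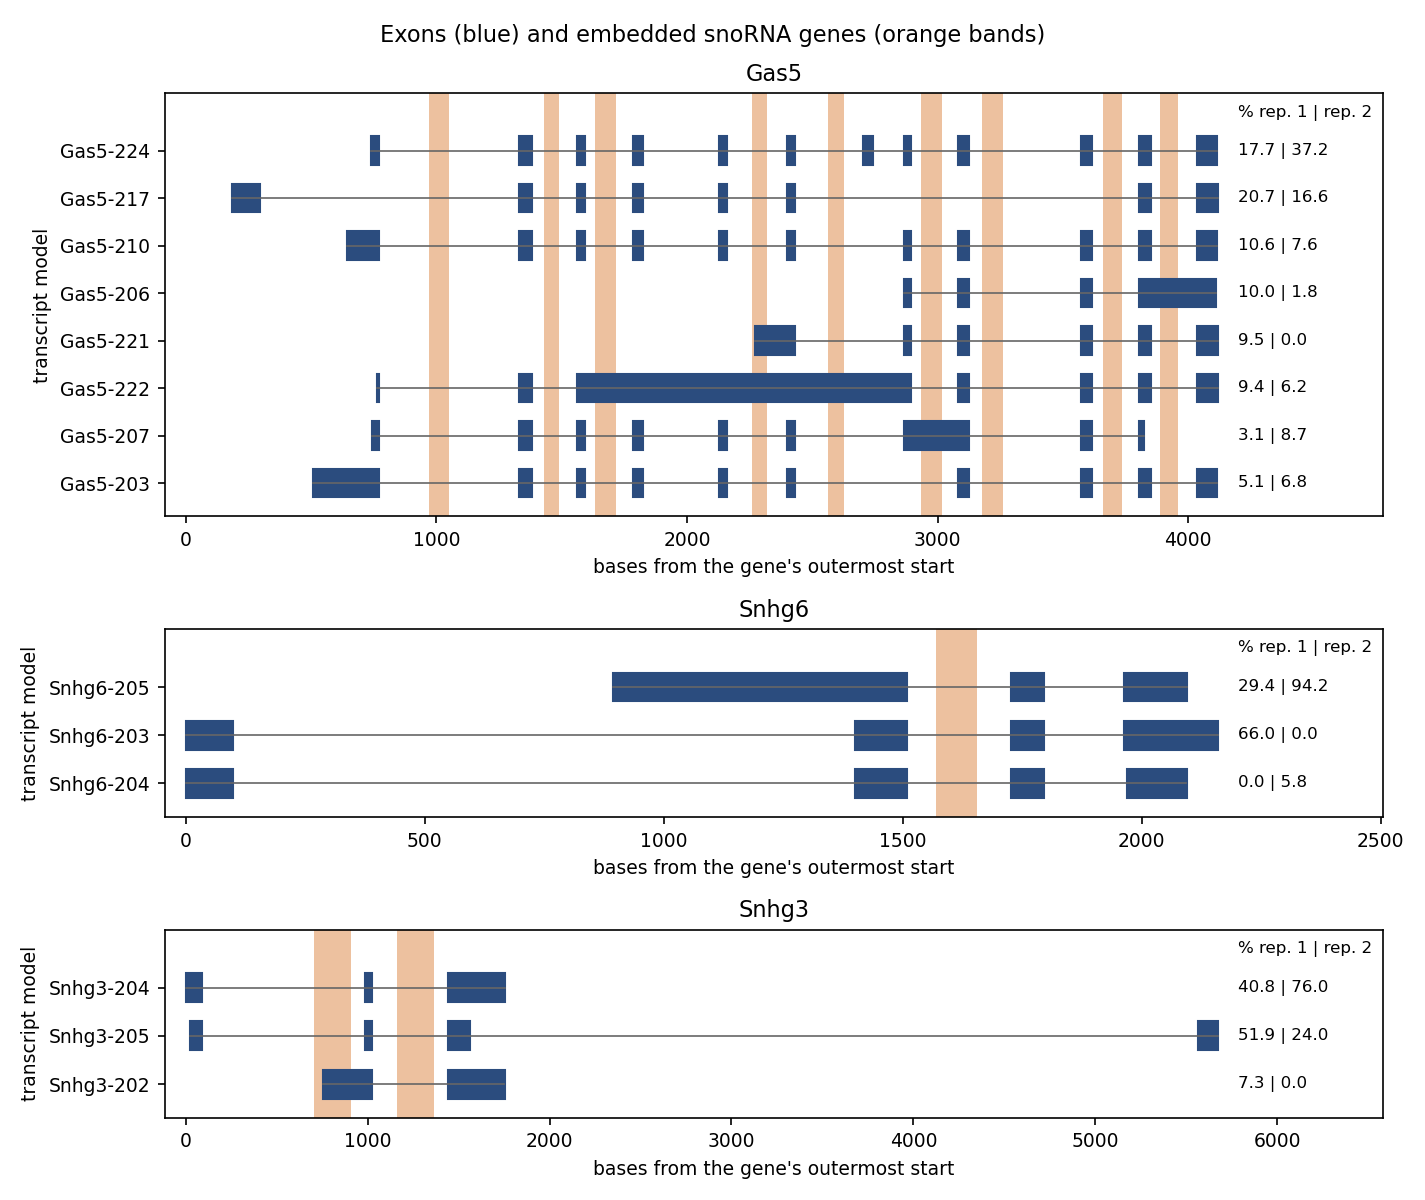
Exons (blue boxes) of the Gas5, Snhg6 and Snhg3 models with at least 5% of TPM in either library, against bases from the outermost start of the gene; orange bands are embedded snoRNA genes, and the numbers at the right are the percent of the gene's TPM in replicates 1 and 2. Most bands fall between exons, and Gas5-222 spans 3 of them in 1 long exon.

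Spliced host transcripts have lost their snoRNAs, so models that keep a whole snoRNA within an exon were summed as a measure of retained introns. For Gas5, 16 of the 25 models keep at least 1 snoRNA. They held 31.1% of TPM (7.60 TPM) in replicate 1 and 28.1% (4.30 TPM) in replicate 2. With models that overlap a snoRNA only in part included, the shares were 40.6% and 28.1%, further apart because Gas5-221 had 9.52% in replicate 1 and 0% in replicate 2. By expected counts, in which long models weigh more, the shares were 48.5% and 44.5%. The model with most of these counts was Gas5-222, whose long exon holds Gm22357, Gm23212 and Snord78. It had 84.2 counts in replicate 1 and 73.0 in replicate 2, or 2.30 and 0.95 TPM. Gas5-206 keeps Gm25789, and Gas5-207 keeps the snoRNA gene that carries the name Mir5117.

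No Snhg3 or Snhg6 model keeps a whole snoRNA, so their shares were 0% by construction of the models. Snhg3-202, which overlaps part of Snora73a, held 7.30% in replicate 1 and 0% in replicate 2. For Snhg5 the share was 0% and 28.9%, from Snhg5-204 with Snord50a (19.9 counts in replicate 2) and Snhg5-205 with Snord50b (4.62 counts). By posterior means it was 10.8% and 29.6%. The interval of Snhg5-204 reached 0.975 TPM in replicate 1 and ran from 0.165 to 0.935 TPM in replicate 2, so these overlapped. Only 11.3% and 56.9% of Snhg5 TPM lay in models whose length is the same in M21, so the Snhg5 shares leave out much of the gene. For Snhg12 that portion was 68.7% in replicate 1 and 0.04% in replicate 2, too little to read a share in replicate 2.

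The mature snoRNAs were barely measured by these libraries. Of the 30 embedded entries with the same length as in M21, 20 had an effective length of 0 in both libraries, which leaves them without a TPM, and all 9 listed in Gas5 and both in Snhg5 were among them. A count was listed for 2 of the 30. Snord22, in Snhg1, had 0.87 counts in replicate 1 and 0 in replicate 2. Snora73a, in Snhg3, had 0 counts in replicate 1 and 27 in replicate 2, where its level was 9.41 TPM (interval 6.20 to 13.3). Taking 3 counts as the limit for the library at 0, Snora73a was at least 5.46-fold higher in replicate 2 (adjusted p = 8.82e-06 in the exact binomial test). Its host Snhg3 had 22 counts in each library. Snora73b, with 96.6% identity, had 0 counts in both, so reads that fit both copies could have been assigned to either. Within Snhg7, the entry named Snora43 in M21 had 13.6 and 37 counts, on models of 741 and 2366 bases in the tables, which are longer than the snoRNA. Which transcript these counts represent is not known here.

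Other noncoding snoRNA hosts were looked at beside these genes, from a list of 12, of which 9 were matched and 7 tested. All 7 differed between the libraries, 5 toward replicate 1 and 2 toward replicate 2, beside 80.4% of all genes tested (37.2% and 43.1% by direction). Their median log2 ratio of replicate 1 to replicate 2 was 0.80, against 0.37 for the 5 host genes described above and -0.06 for all genes tested. Epb41l4aos was the most abundant at 199 and 80.5 TPM, above all 5 of the described genes in replicate 1. Snhg15 was 2.81-fold higher in replicate 1 (17.3 and 5.44 TPM). Snhg9 had 0 and 49 counts, or 0 and 26.2 TPM, at least 9.90-fold higher in replicate 2 with 3 counts as the limit in replicate 1.

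Protein-coding snoRNA hosts numbered 256 matched of 259 annotated, 30 of them ribosomal protein genes, and 180 were tested. Of these, 78 were higher in replicate 1 and 90 in replicate 2, 43.3% and 50%, beside 37.2% and 43.1% of all genes. The balance turned with total counts, to 86 and 77. Their median log2 ratio was -0.09, and that of all genes was -0.06. Large differences toward replicate 2, as in Snhg12 and Snhg6, were found here, and so were differences toward replicate 1. The ribosomal protein gene Rps12 was 25.7-fold higher in replicate 2, at 85.9 and 1814 TPM. Rpl39, another ribosomal protein gene, was 3.48-fold higher in replicate 1, at 603 and 140 TPM. Of 14 translation genes with pyrimidine starts (TOP mRNAs), 6 were higher in replicate 1 and 8 in replicate 2 (42.9% and 57.1%, beside the same 37.2% and 43.1%), with a median log2 ratio of -0.56. Rack1, a ribosome component that is itself a snoRNA host, was 13.8-fold higher in replicate 2 at 219 and 3485 TPM. Eif3f was 2.03-fold higher in replicate 1 at 1390 and 539 TPM.

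**Figure D4:**
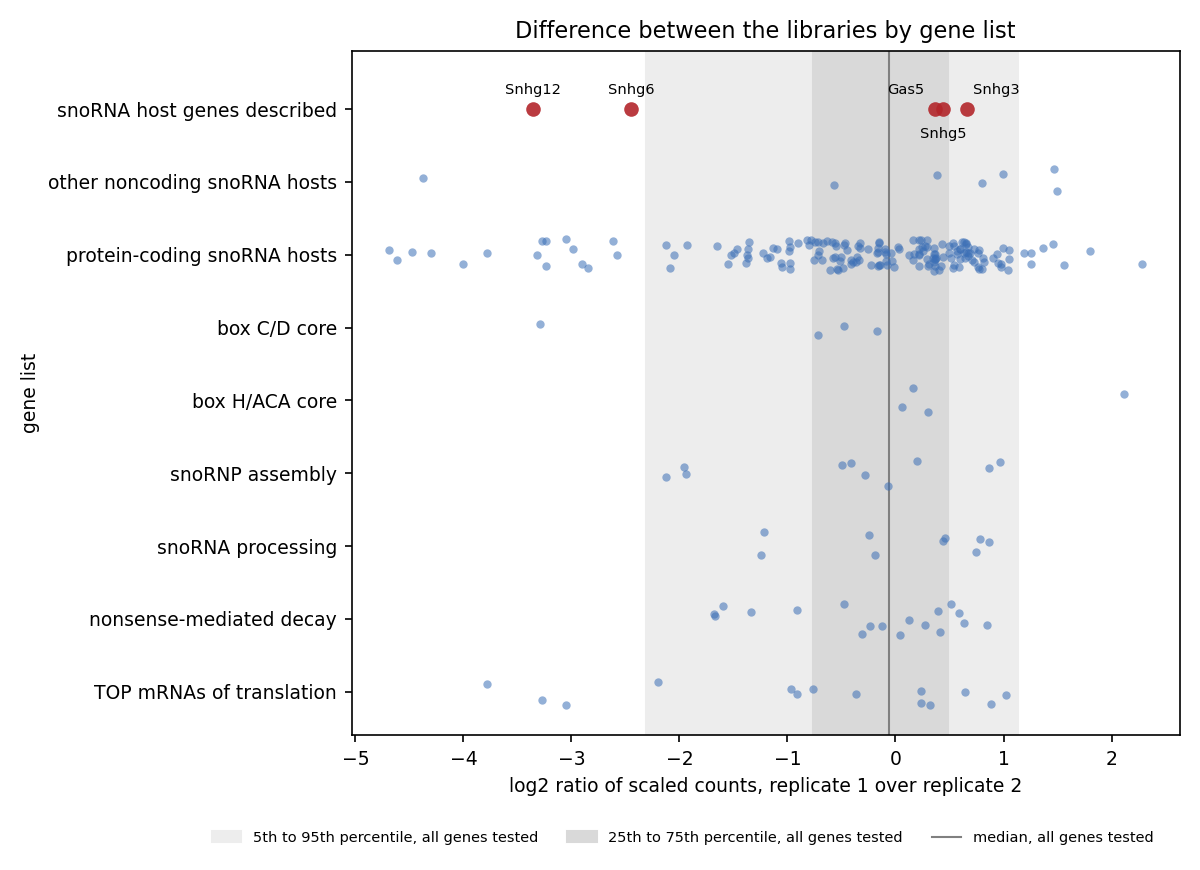
Log2 ratio of scaled counts, replicate 1 over replicate 2, for every tested gene of each list (points, spread vertically to be seen); grey bands span the middle of all tested genes. Snhg12 at -3.36 and Snhg6 at -2.45 lie left of the outer band, and Gas5 at 0.37, Snhg5 at 0.44 and Snhg3 at 0.66 lie inside it.

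The mRNAs of the 4 core proteins of C/D particles were all higher in replicate 2, beside 43.1% of all genes, with a median log2 ratio of -0.59. With total counts 3 of the 4 were called. Nop58 differed by 1.13-fold in scaled counts and had 203 and 184 TPM, so its direction turned on the TPM scale. Fbl, the 2'-O-methyltransferase, had 789 and 1026 TPM and was 1.64-fold higher, and Snu13, which binds the C/D fold, had 34.1 and 268 TPM and was 9.77-fold higher. The mRNAs of the 4 core proteins of H/ACA particles were all higher in replicate 1, beside 37.2% of all genes, with a median log2 ratio of 0.23. The smallest of these differences was that of Nhp2, 1.04-fold. Dkc1, the pseudouridine synthase, had 18.2 and 9.27 TPM and was 1.23-fold higher, and Nop10 had 104 and 18.9 TPM and was 4.34-fold higher. Among the described hosts of C/D snoRNAs, Gas5 was higher in replicate 1, and Snhg5 was not called. Snhg6 was higher in replicate 2, and so was Snhg12, which also holds H/ACA snoRNAs. Any link between the core protein mRNAs and the host gene levels was not tested.

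Of 10 snoRNP assembly factors 2 were higher in replicate 1 and 6 in replicate 2, of 9 snoRNA processing factors 5 and 4, and of 18 tested nonsense-mediated decay factors 7 and 9, beside 37.2% and 43.1% of all genes. With total counts the split of the processing factors was 5 and 2 and that of the decay factors 8 and 7. Dbr1, which opens the intron lariat so that the snoRNA can be trimmed out, had 94.7 and 50.5 TPM and was 1.35-fold higher in replicate 1. Upf1, the helicase of nonsense-mediated decay, had 220 and 131 TPM and was 1.31-fold higher in replicate 1. Upf3b, another factor of that pathway, had 3.40 and 8.28 TPM and was 3.21-fold higher in replicate 2. Any part of these factors in the host gene levels was not tested.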

How the data were processed

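Per the text deposited with the tables, reads were aligned to mm10 and quantified on GENCODE annotation M4. The aligner, the quantifier, their versions and the use of strand in counting are not given in the sources used, and the authors did not pool replicates. The deposited expected counts are estimated fragments per gene or transcript, not normalized, and were rounded for tests. The deposited TPM and FPKM values were scaled by the authors for effective length and depth, and the percent of a gene's TPM in each transcript is the authors' value. Deposited interval bounds (unit score, level not stated) and posterior means were used as given.

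Symbols, coordinates and models came from GENCODE M21 and RefSeq tables (GRCm38.p6). A model was compared with M21 only where both lengths were equal. The 5 matched host genes had whole counts (within 0.005) and all passed the filter of a summed count of at least 20. With 1 library a side no residual degrees of freedom remain for edgeR's quasi-likelihood test, so a two-sided exact conditional binomial test was run on counts with TMM library sizes (edgeR 4.0.16), with a prior count of 2 in ratios and Benjamini-Hochberg adjustment over 10635 genes at 0.05. It compares libraries, not conditions, and covers counting noise only, as do intervals and limits set at 3 counts. The test was checked on simulated data for replicate 1 against replicate 2 with 10569 genes, where 85.0% of 100 genes changed 1.5-fold and all 100 changed 4-fold were recovered. The simulated counts held counting noise only, the noise that the test assumes. The check therefore does not cover other variation between libraries. The median log2 ratio of all genes was -0.06 with TMM, -0.05 with DESeq2 1.42.0 size factors and 0.11 with total counts, so directions of small ratios are relative to that shift.

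The members and lists were chosen with earlier results of these data known. All members, their transcripts with at least 10% of TPM, their snoRNAs and overlapping genes could be named. From other lists the rule allowed the 3 highest by TPM, the lowest and the 2 largest called ratios in each direction. Lists share genes: Nop56, Nop58, Dkc1, Eef1b2, Eef2, Rack1 and Tpt1 are also snoRNA hosts. Upf1, Dbr1, Dkc1 and Fbl fall under this rule. Alternatives were other scalings, filters, prior counts, posterior means, stricter calls and shares by counts.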

Additional observations from a re-analysis of the deposited data

How the results depend on the processing

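The direction of the difference between libraries was kept by all 5 host genes under every scaling, count type, prior count and count filter that gave a value, and the call was kept in 23 of 24 comparisons, leaving aside the prior count, which does not enter the test. Snhg3 has too few counts for the filter at 100. With total counts, 2 host genes instead of 1 were higher in replicate 1, because Snhg5 passed the threshold, and with a 2-fold minimum 0 were. Total counts also left 2 snoRNA processing factors higher in replicate 2 instead of 4. Over all genes, 46.3% of calls were higher in replicate 1 with TMM and 55.2% with total counts. A minimum of 10 TPM in both libraries left 1 host gene, Gas5. The mean Gas5 share in models that keep a snoRNA was 29.6%, and 32.0% by posterior means, 46.5% by counts, 34.3% with any overlap, and 28.1% to 31.1% when either replicate was left out. Without the model that leads in replicate 2, a choice made after seeing the data, the mean level was 3.44 TPM for Snhg12, 14.9 TPM for Gas5, 2.13 TPM for Snhg6, 1.83 TPM for Snhg5 and 1.22 TPM for Snhg3. The Snhg5 model ENSMUST00000183030 had a mean share of 17.5% by posterior means, by which it led in neither library, and 47.1% by counts. No paired analysis was possible because there is only 1 group. With 2 libraries, leaving 1 out gives no difference between them. Depth limits Snhg3 and Snhg5, with at most 83 counts a library, and also Snhg6 and Snhg12 in replicate 1, with 53 and 72.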
